A study of Mus musculus with 16 samples.

Results

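The 8 genes described here encode surface receptors with which macrophages take up modified lipoproteins, microbes, haemoglobin and glycoproteins: Msr1, Marco, Cd36, Scarb1, Olr1, Stab1, Cd163 and the mannose receptor Mrc1. They were chosen by name and found by their symbols among the 22287 genes of a count table, and all 8 were among the 12514 genes that passed the expression filter and were tested. The study asked how the culture dish and the growth factor shape bone marrow derived macrophages (BMDMs), which are made by growing mouse bone marrow cells in a macrophage growth factor. Marrow of C57BL/6J mice aged 8 weeks grew for 7 days in GM-CSF at 20 ng/ml (GM cells) or in M-CSF at 50 ng/ml (M cells), on standard tissue culture dishes (TC) or on dishes not conditioned for adherence (noTC). The cells were then treated with vehicle, called steady state here, or challenged with LPS at 100 ng/ml for 3 h. Growth factor, dish and treatment combine to 8 groups of 2 libraries, made from mRNA captured out of total RNA on oligo(dT) beads. Each group is named by its growth factor and dish (as in GM-TC), with LPS added to the name of the challenged groups (GM-TC-LPS). No group carried a deletion or a transgene. The M-CSF cultures were seeded at a lower density than the GM-CSF cultures, so growth factor and seeding density cannot be told apart in the growth factor comparison. The study calls the libraries of a group biological replicates. The labels do not say whether they came from separate mice or cultures, and the p-values measure the spread between these libraries.

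Scavenger receptors bind polyanionic and modified ligands such as oxidised lipoprotein, bacterial wall components and dying cells, and carry them into the cell. The class A receptors Msr1 and Marco are trimeric collagen-like proteins. The class B receptors Cd36 and Scarb1 exchange or take up lipids at the cell surface. Olr1 and Mrc1 hold C-type lectin-like domains, Stab1 clears matrix fragments and modified proteins, and Cd163 takes up haemoglobin bound to haptoglobin. In macrophages, Cd163 and Mrc1 are widely used as markers of alternatively activated cells, and Marco is known as a receptor that microbial products induce.

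RefSeq promoters, 250 bases before to 50 bases after the start site on GRCm38.p6, were found for 6 of the 8 genes, and the ones shown belong to the genes that changed most upon LPS challenge (Marco, Olr1) and to Stab1 and Mrc1, which differed between growth factors in opposite directions. The windows lie at chr1:120504975-120505274 (minus strand) for Marco, chr6:129507116-129507415 (minus strand) for Olr1, chr14:31168592-31168891 (minus strand) for Stab1 and chr2:14229164-14229463 (plus strand) for Mrc1. Capitals mark matches, on either strand, to the AP-1 letters TGANTCA, the NF-kB letters GGGA, any 4 bases and CC, and the PU.1 letters GAGGAA.
Marco: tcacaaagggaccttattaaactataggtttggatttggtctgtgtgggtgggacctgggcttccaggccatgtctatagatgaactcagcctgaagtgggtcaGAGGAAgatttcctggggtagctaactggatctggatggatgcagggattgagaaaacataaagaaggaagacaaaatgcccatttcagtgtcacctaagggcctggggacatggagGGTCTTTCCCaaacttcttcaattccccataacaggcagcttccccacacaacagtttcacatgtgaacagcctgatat
Olr1: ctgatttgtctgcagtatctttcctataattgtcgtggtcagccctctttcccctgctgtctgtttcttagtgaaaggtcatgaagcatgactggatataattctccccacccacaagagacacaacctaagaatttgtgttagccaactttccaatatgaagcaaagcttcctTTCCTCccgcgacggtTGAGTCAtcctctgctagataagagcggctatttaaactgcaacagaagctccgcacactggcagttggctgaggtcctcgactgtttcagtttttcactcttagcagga
Stab1: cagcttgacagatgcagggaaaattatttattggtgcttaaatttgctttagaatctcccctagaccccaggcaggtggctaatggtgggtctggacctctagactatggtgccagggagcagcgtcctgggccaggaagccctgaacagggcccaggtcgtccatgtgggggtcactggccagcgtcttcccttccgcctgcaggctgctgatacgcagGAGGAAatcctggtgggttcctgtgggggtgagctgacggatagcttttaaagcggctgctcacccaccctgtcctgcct
Mrc1: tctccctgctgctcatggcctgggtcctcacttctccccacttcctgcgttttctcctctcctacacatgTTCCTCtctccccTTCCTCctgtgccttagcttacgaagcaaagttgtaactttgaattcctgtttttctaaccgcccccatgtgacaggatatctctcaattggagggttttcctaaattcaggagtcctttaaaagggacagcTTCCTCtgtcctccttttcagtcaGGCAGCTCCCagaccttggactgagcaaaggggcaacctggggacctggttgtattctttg
Olr1 held the only AP-1 match of the 6 promoters, 60 bases before the start site, and 7.81% of the 32851 promoters in the RefSeq table hold those letters. The NF-kB letters, present in 20.7% of all promoters, stood 29 bases before the start of Marco and 11 bases before that of Mrc1, and also in the promoters of Cd163 and Cd36. The PU.1 letters, present in 28.3% of all promoters, stood in Marco, Olr1, Stab1 and Mrc1, with 3 matches in Mrc1. The C/EBP letters TTGCNNAA, the IRF letters GAAA, any 2 bases and GAAA, and the TATA box letters TATAAA were in none of the 6 windows, against 10.8%, 3.44% and 13.6% of all promoters. Such matches describe letters and not bound sites, and no match overlapped another.

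Total counts lay between 17527802 and 31458363 per library, at which 3 counts correspond to between 0.0697 and 0.174 CPM (counts scaled to a common library total) after TMM scaling, a floor that covers counting error only. The macrophage markers summed to between 20531 and 47803 CPM, with all 8 detected in every group. The RNA is from bulk cells, in which fewer cells of a type and less RNA per cell cannot be told apart. The GM libraries also held 944 to 1113 CPM of the dendritic cell markers in sum, 7 of 8 of them tested, against 16.4 to 63.2 CPM in the M libraries, with Itgax giving most of it. Libraries of both steady state TC groups held 21.2 to 57.4 CPM of the cardiac muscle markers, 7 of 7 tested, while no other library held more than 0.872 CPM. The neutrophil markers, 3 of 7 tested, summed to 7.62 to 22.8 CPM in the GM and at most 0.513 CPM in the M libraries. With LPS, the sum of the fibroblast markers, 6 of 7 tested, went from 1.35 to 6.11 CPM up to 22.7 to 49.0 CPM. Pdgfrb gave most of the latter, at 20.3 to 41.2 CPM. Between 2 and 5 of the 6 tested rose at an edgeR adjusted p under 0.05 over the 4 cultures, and 1 fell in M-TC. The endothelial sum, 4 of 7 tested, went from 12.7 to 15.4 CPM up to 44.6 to 117 CPM. Kdr gave most of it, at 35.1 to 114 CPM with LPS. At the same threshold, 2 of the 4 tested rose in each GM culture and 3 in each M culture. The part of these marker levels in the results was not tested. The steady state noTC libraries carried a small excess of some genes. These were under 1 CPM in the matching TC libraries and at a mean of 100 CPM or more in the remaining libraries. Remaining libraries here are the LPS libraries and the steady state noTC libraries of the other growth factor. The median excess, called the common share here, was 0.675% of the level in the remaining libraries over 15 genes in GM-noTC (0.390% to 0.907%). In M-noTC it was 0.600% over 19 genes, which include Olr1 and range from 0.0084% to 0.845%. The low Olr1 values of M-noTC are of that size, and their comparisons are given below also with that share subtracted. The subtraction was made in the steady state noTC libraries only, and the LPS libraries were left as they were.

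Across the 8 groups the ratio of the highest to the lowest group mean spanned 3129 for Olr1, 84.7 for Stab1, 28.9 for Marco, 6.66 for Cd163, 6.28 for Msr1, 6.17 for Mrc1, 1.96 for Cd36 and 1.87 for Scarb1. Olr1 was the member in which no pair of neighbours in the order of groups overlapped: GM-noTC-LPS, GM-TC-LPS, GM-noTC, GM-TC, M-noTC-LPS, M-TC-LPS, M-noTC, M-TC. The last step of that order rests on the low M-noTC values. In Marco and Scarb1, 4 of 7 neighbouring pairs overlapped, so that their steady state or LPS groups could not all be ranked.

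**Figure D1:**
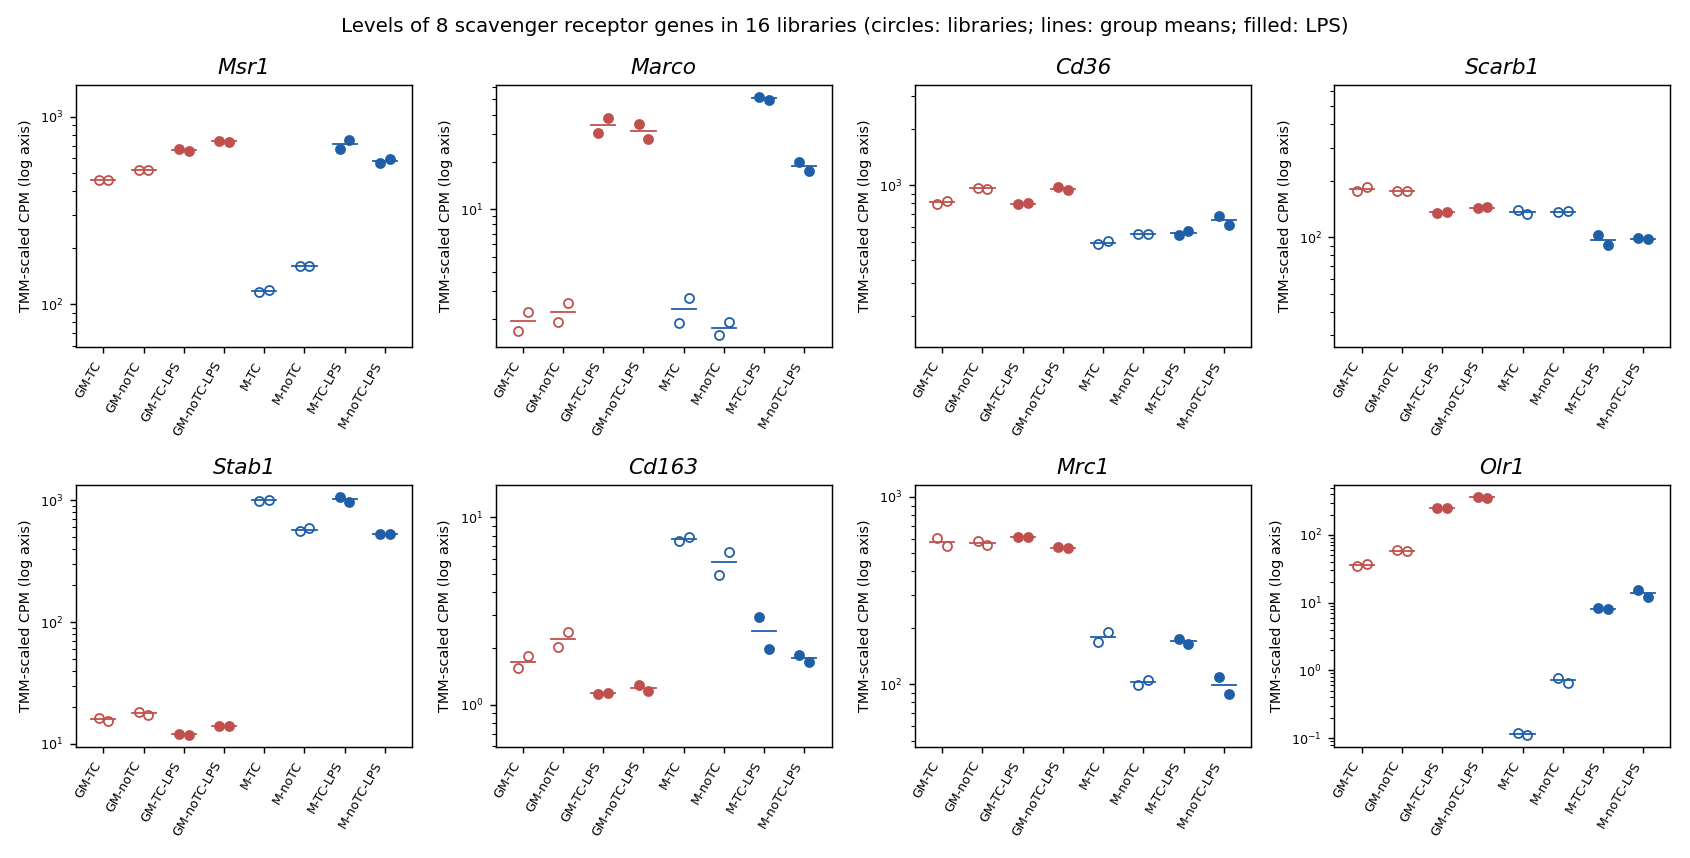
TMM-scaled CPM of each gene on a logarithmic axis in the 16 libraries, with open circles for steady state, filled circles for LPS, and lines at the mean of the 2 libraries of a group (red, GM-CSF; blue, M-CSF). Stab1 is at 989 and 1008 CPM in M-TC and at most 18.3 CPM in the GM libraries. Olr1 is higher in every GM library than in any M library, and Marco is low in all 4 steady state groups and high in all 4 LPS groups.

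The comparison of growth factors asked how M-CSF and GM-CSF macrophages differ on the same dish and treatment. On TC dishes at steady state, Stab1 and Cd163 were higher in M-CSF cells, and Olr1, Mrc1, Msr1, Cd36 and Scarb1 were higher in GM-CSF cells. Calls were made with edgeR's quasi-likelihood test over all 16 libraries at a Benjamini-Hochberg adjusted p under 0.05. That made 7 of 8 members called, 2 higher and 5 lower in M-TC, where 61.5% of all tested genes were called, 28.9% as higher and 32.6% as lower. The median log2 fold change of the members was -0.56, against -0.02 over all tested genes. On noTC dishes the same counts held, 2 higher and 5 lower, against 62.1% of all genes, 30.7% higher and 31.4% lower.

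Stab1, the large clearance receptor stabilin-1, showed the largest rise with M-CSF. Its level was 16.4 and 15.4 CPM in GM-TC and 989 and 1008 CPM in M-TC, a 62.9-fold difference (log2 5.98, SE 0.070, edgeR adjusted p = 2.1e-24). On noTC dishes it was 18.3 and 17.3 CPM in GM cells and 561 and 588 CPM in M cells, 32.3-fold higher in the latter. No GM library approached any M library. Upon LPS challenge the difference was 84.7-fold on TC and 37.7-fold on noTC dishes. In the GM libraries, Stab1 stood at 2.06% to 4.45% of its mean in the other libraries, by CPM without TMM factors. In each GM library with LPS, at 2.06% to 2.40%, it had the lowest such percentage of any gene with a mean of 100 CPM or more. In the steady state GM libraries the lowest percentage of any such gene was 0% to 0.890%. The part of other libraries' reads in these Stab1 levels was not tested.

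Cd163, the haemoglobin-haptoglobin receptor, was scarce everywhere, and higher in M-CSF cells. It had 1.57 and 1.81 CPM in GM-TC and 7.46 and 7.86 CPM in M-TC, a 4.50-fold difference (log2 2.17, SE 0.21, edgeR adjusted p = 6.2e-09). The noTC groups held 2.04 and 2.44 CPM with GM-CSF and 4.95 and 6.57 CPM with M-CSF, without overlap. After LPS the difference narrowed, to 2.16-fold on TC dishes (log2 1.11, SE 0.28, adjusted p = 0.0013) and to a log2 value of 0.52 (SE 0.29, adjusted p = 0.11) on noTC dishes, which did not pass. The call on TC dishes after LPS was lost without M-TC-LPS replicate 1 (log2 0.78, adjusted p = 0.055).

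Olr1, the lectin-like receptor for oxidised lipoprotein, was the member most restricted to GM-CSF cells. GM-TC held 35.4 and 36.8 CPM, and M-TC held 3 counts in each library, or 0.12 and 0.11 CPM. The ratio of GM-TC to M-TC by counts was 313, with a 95% counting interval of 143 to 853. GM-noTC held 59.2 and 58.6 CPM against 0.78 and 0.65 CPM in M-noTC, a ratio of 84.0 (interval 63.7 to 113). With the share common to the noTC libraries subtracted, the fitted log2 value on noTC dishes was -8.21 (edgeR adjusted p = 3e-21) in place of -6.38. Upon LPS challenge, GM-TC-LPS held 251 and 250 CPM and M-TC-LPS 8.42 and 7.96 CPM, a 30.5-fold difference (log2 -4.93, SE 0.082, edgeR adjusted p = 4.2e-22). In GM-noTC-LPS there were 369 and 357 CPM against 15.2 and 12.2 CPM in M-noTC-LPS, so every GM library, treated or not, stood above every M library.

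Mrc1, the mannose receptor, was higher in GM-CSF cells in each of the 4 settings. GM-TC held 604 and 549 CPM and M-TC 168 and 191 CPM, a 3.21-fold difference (log2 -1.68, SE 0.076, edgeR adjusted p = 1.5e-14). On noTC dishes, 584 and 554 CPM in GM cells stood against 99.3 and 106 CPM in M cells, or 5.54-fold. The lowest GM library of any treatment, at 532 CPM, lay above the highest M library. After LPS the difference was 3.59-fold on TC and 5.41-fold on noTC dishes.

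Msr1, the class A receptor for modified lipoprotein, differed between growth factors before LPS and little after it. GM-TC held 461 and 460 CPM and M-TC 116 and 119 CPM, 3.91-fold apart (log2 -1.97, SE 0.053, edgeR adjusted p = 1.3e-18). GM-noTC held 517 and 518 CPM against 160 CPM in both M-noTC libraries, 3.23-fold apart. Upon LPS challenge on TC dishes the values were 669 and 659 CPM in GM cells and 675 and 752 CPM in M cells, which did not overlap, and the difference was not called (log2 0.10, SE 0.050, adjusted p = 0.075). It was called as higher in M cells with DESeq2 (log2 0.14, adjusted p = 0.014), with its size factors in edgeR (adjusted p = 0.018), and without M-TC-LPS replicate 1 (adjusted p = 0.0063). On noTC dishes after LPS, M cells remained lower, at 566 and 593 CPM against 744 and 737 CPM (log2 -0.35, adjusted p = 2.1e-06).

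Cd36 and Scarb1 are class B receptors. Cd36, a fatty acid and oxidised lipoprotein receptor, was 792 and 826 CPM in GM-TC and 484 and 502 CPM in M-TC, 1.64-fold lower in M cells (log2 -0.72, SE 0.052, edgeR adjusted p = 6e-11), and it was lower in M cells by 1.43- to 1.76-fold over the 4 settings. Scarb1, the receptor for high density lipoprotein, was 176 and 186 CPM in GM-TC and 140 and 133 CPM in M-TC, 1.33-fold lower in M cells (log2 -0.41, SE 0.056, edgeR adjusted p = 1.4e-06). The range over the 4 settings was 1.29- to 1.46-fold. Scaling by library size alone moved the median of all genes in the steady state growth factor comparisons to 0.29 on either dish and the share of higher calls among all called genes from 47.0% to 72.1% on TC and from 49.4% to 72.5% on noTC dishes. With that scaling Scarb1 differed by -0.09 on TC dishes (adjusted p = 0.14) and by -0.08 on noTC dishes (adjusted p = 0.22), and its call was lost at steady state.

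Marco, the class A receptor of bacteria and particles, did not pass at steady state. It had 1.67 and 2.21 CPM in GM-TC and 1.87 and 2.73 CPM in M-TC, with overlap (log2 0.23, SE 0.27, adjusted p = 0.47). Upon LPS challenge the 2 dishes gave opposite directions. M-TC-LPS stood above GM-TC-LPS, at 51.9 and 49.6 against 30.6 and 37.8 CPM (log2 0.57, SE 0.11, edgeR adjusted p = 0.00016), and M-noTC-LPS stood below GM-noTC-LPS, at 20.1 and 17.6 against 34.8 and 28.1 CPM (log2 -0.74, SE 0.12, edgeR adjusted p = 2.1e-05). After LPS, 3 members were higher and 4 lower in M cells on TC dishes, against 66.8% of all genes called (32.9% higher and 33.9% lower). On noTC dishes 1 was higher and 6 lower, against 66.1% (32.6% higher and 33.5% lower). The part in these differences of the dendritic cell markers, which moved with the growth factor, was not tested.

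**Figure D2:**
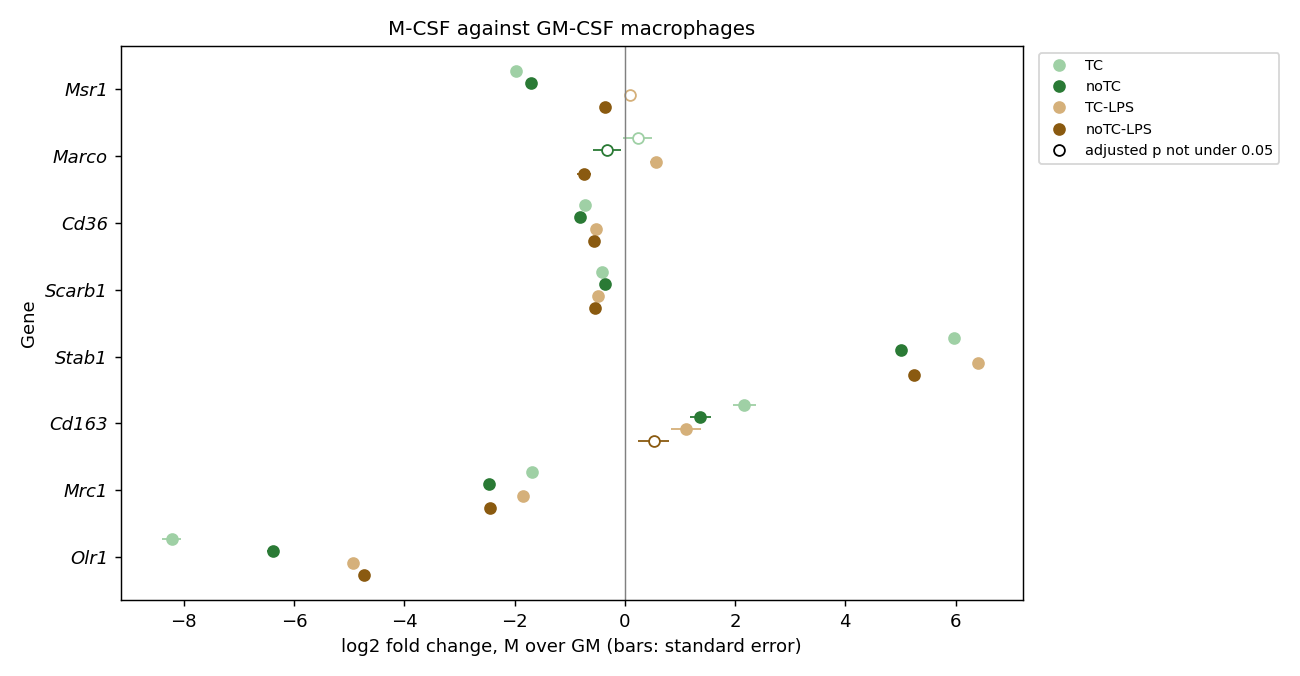
Log2 fold change of M-CSF over GM-CSF cells for each gene on TC and noTC dishes, at steady state and with LPS, with standard errors as bars and open circles where the adjusted p was not under 0.05. Stab1 lies between 5.01 and 6.40 and Olr1 between -8.22 and -4.73, while Cd36 and Scarb1 lie between -0.81 and -0.37.

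The LPS comparison asked how each culture responds to 3 h of LPS, the lipopolysaccharide of bacterial walls that Tlr4 senses. Marco, Olr1 and Msr1 rose in all 4 cultures, Scarb1 fell in all 4, and Mrc1 passed in none. In GM-TC, 3 members rose and 2 fell, against 67.0% of all genes called, 32.8% higher and 34.2% lower. In GM-noTC 3 rose and 3 fell, against 67.7%, 33.6% higher and 34.0% lower. In M-TC 4 rose and 2 fell, against 74.0%, 37.6% higher and 36.4% lower. In M-noTC 4 rose and 2 fell, against 72.3%, 36.4% higher and 35.9% lower. The median of the members lay between -0.05 and 0.10 in the 4 comparisons, and that of all tested genes between -0.05 and -0.01. With scaling by library size alone the median of all genes lay at -0.53 and -0.54 in the GM cultures on TC and noTC dishes and at -0.83 and -0.73 in the M cultures. The share of higher calls among all called genes then lay between 19.0% and 21.5%, against 48.9% to 50.9% with TMM scaling. LPS changes below are on the TMM scale, the change of scale shifts all genes of a comparison alike, and values on the other scale are given wherever it ends a call or turns a direction.

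Marco rose most evenly. From 1.67 and 2.21 CPM in GM-TC it went to 30.6 and 37.8 CPM with LPS, 17.4-fold (log2 4.12, SE 0.18, edgeR adjusted p = 3.1e-15). In GM-noTC it went from 1.92 and 2.51 to 34.8 and 28.1 CPM, 14.1-fold. In M-TC it went from 1.87 and 2.73 to 51.9 and 49.6 CPM, 21.9-fold (log2 4.45, SE 0.16, edgeR adjusted p = 8.4e-17). The M-noTC libraries went from 1.58 and 1.93 to 20.1 and 17.6 CPM, 10.5-fold (log2 3.40, SE 0.17), the smallest of the 4 changes. All 8 LPS libraries lay above all 8 steady state libraries.

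Olr1 also rose in each culture, from very different starting levels. GM-TC went from 35.4 and 36.8 to 251 and 250 CPM, 6.93-fold (log2 2.79, SE 0.066, edgeR adjusted p = 6.5e-20), and GM-noTC from 59.2 and 58.6 to 369 and 357 CPM, 6.16-fold. M-TC went from 3 counts in each library to 8.42 and 7.96 CPM, a ratio of 70.9 with a counting interval of 32.2 to 195. M-noTC went from 0.78 and 0.65 to 15.2 and 12.2 CPM, a ratio of 19.5 (interval 14.6 to 26.5). The excess of Olr1 in M-noTC was 0.717% of the mean of the remaining libraries, near the median of 0.600% over 19 genes, which include Olr1. With the common share subtracted from M-noTC, and nothing from M-noTC-LPS, the fitted log2 value was 6.11 (edgeR adjusted p = 1.6e-17) in place of 4.27. Even so, the highest level of Olr1 in an M library after LPS was under the lowest level in an untreated GM library. In the M libraries treated with LPS, Olr1 stood at 7.60% to 15.8% of its mean in the other libraries, where the lowest such percentage of any gene with a mean of 100 CPM or more was 0.433% to 0.606%.

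Msr1 rose far more in M cells than in GM cells. M-TC went from 116 and 119 to 675 and 752 CPM, 6.05-fold (log2 2.60, SE 0.054, edgeR adjusted p = 4.2e-21), and M-noTC from 160 CPM in both libraries to 566 and 593 CPM, 3.62-fold. GM-TC went from 461 and 460 to 669 and 659 CPM, 1.44-fold (log2 0.53, SE 0.050, edgeR adjusted p = 4.8e-09), and GM-noTC from 517 and 518 to 744 and 737 CPM, 1.43-fold. Scaled by library size alone, Msr1 in GM cells differed by 0.05 on TC (adjusted p = 0.36) and 0.01 on noTC dishes (adjusted p = 0.87), and its call was lost. Its response differed between growth factors by 2.07 on TC (SE 0.073, edgeR adjusted p = 1.6e-15) and by 1.34 on noTC dishes (SE 0.072, adjusted p = 2.2e-12), as tested by the interaction. For these interactions, 4 members were higher and 1 lower on TC dishes, against 41.1% of all genes called (23.3% higher and 17.8% lower), and 3 were higher and none lower on noTC dishes, against 36.2% (19.3% higher and 16.9% lower).

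Scarb1 fell in each of the 4 cultures. GM-TC went from 176 and 186 to 135 and 137 CPM (log2 -0.41, SE 0.056, edgeR adjusted p = 1.1e-06) and M-TC from 140 and 133 to 103 and 90.8 CPM (log2 -0.50, SE 0.058, edgeR adjusted p = 8e-08). The changes on noTC dishes were -0.30 in GM and -0.48 in M cells. By library size alone, the log2 values of Scarb1 were -0.89 on TC and -0.81 on noTC dishes with GM-CSF, and -1.32 and -1.21 with M-CSF. No LPS library of Scarb1 reached the untreated libraries of its own culture. The response did not differ between growth factors by the interaction test, with -0.08 (SE 0.080) on TC and -0.18 (SE 0.080, adjusted p = 0.084) on noTC dishes.

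Cd163 fell in 3 of the 4 cultures. It went from 7.46 and 7.86 to 2.95 and 1.98 CPM in M-TC, 3.07-fold lower (log2 -1.62, SE 0.20, edgeR adjusted p = 2.2e-07), and from 4.95 and 6.57 to 1.85 and 1.70 CPM in M-noTC, 3.28-fold lower (adjusted p = 2.3e-07). In GM-noTC it went from 2.04 and 2.44 to 1.28 and 1.19 CPM (log2 -0.86, SE 0.26, edgeR adjusted p = 0.0062), a call that was lost without GM-noTC replicate 2 (log2 -0.70, adjusted p = 0.067). The GM-TC values of 1.57 and 1.81 CPM against 1.14 and 1.16 CPM did not overlap but did not pass (log2 -0.56, SE 0.29, adjusted p = 0.092). They passed with scaling by library size alone (log2 -1.04, adjusted p = 0.0024). The fall was larger in M than in GM cells on TC dishes by -1.06 (SE 0.36, edgeR adjusted p = 0.023), which did not pass with DESeq2 (adjusted p = 0.057) or without GM-TC replicate 1, either GM-TC-LPS replicate or M-TC-LPS replicate 2 (adjusted p between 0.051 and 0.094).

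Stab1 fell in GM cells, from 16.4 and 15.4 to 12.1 and 11.9 CPM on TC dishes (log2 -0.40, SE 0.086, edgeR adjusted p = 0.00029) and from 18.3 and 17.3 to 14.0 and 14.1 CPM on noTC dishes (log2 -0.34, SE 0.080, edgeR adjusted p = 0.00076). The noTC call was lost when the common share was subtracted from GM-noTC (log2 -0.13, edgeR adjusted p = 0.16). Nothing was subtracted from GM-noTC-LPS, so that fit lowers 1 side only and cannot decide whether the fall depends on the share. In M-TC, where Stab1 is abundant, 989 and 1008 CPM stood beside 1071 and 960 CPM with LPS (log2 0.02, SE 0.052, adjusted p = 0.68), and by library size alone the value was -0.80 (adjusted p = 7.1e-12). In M-noTC, 561 and 588 CPM stood beside 527 and 533 CPM (log2 -0.12, SE 0.052, adjusted p = 0.052), which passed at -0.84 by library size alone (adjusted p = 3.8e-12) and at -0.15 in a fit to those libraries only (adjusted p = 0.0026).

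Cd36 and Mrc1, both abundant, moved little relative to the other genes. Cd36 was 792 and 826 CPM in GM-TC and 794 and 802 CPM with LPS, and 972 and 957 CPM in GM-noTC and 973 and 944 CPM with LPS, with log2 values of -0.02 and -0.01 that did not pass. In M cells it rose from 484 and 502 to 543 and 571 CPM on TC dishes (log2 0.18, SE 0.052, edgeR adjusted p = 0.0044) and from 550 and 549 to 689 and 616 CPM on noTC dishes (log2 0.25, SE 0.052, edgeR adjusted p = 0.0002), and both directions turned with scaling by library size alone, to -0.65 and -0.48. The TC value did not pass without M-TC replicate 1 (log2 0.15, adjusted p = 0.053) or M-TC-LPS replicate 2 (log2 0.14, adjusted p = 0.054). Mrc1 was 604 and 549 CPM in GM-TC and 611 and 610 CPM with LPS (log2 0.08, SE 0.074, adjusted p = 0.32), and in the other cultures its log2 values lay between -0.09 and -0.05 without passing. By library size alone Mrc1 was lower in all 4 cultures, by log2 values from -0.91 in M-TC to -0.40 in GM-TC. Without 1 library, 2 of its LPS values passed: 0.17 in GM-TC without GM-TC replicate 1 (adjusted p = 0.0498) and -0.22 in M-noTC without M-noTC-LPS replicate 1 (adjusted p = 0.028).

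**Figure D3:**
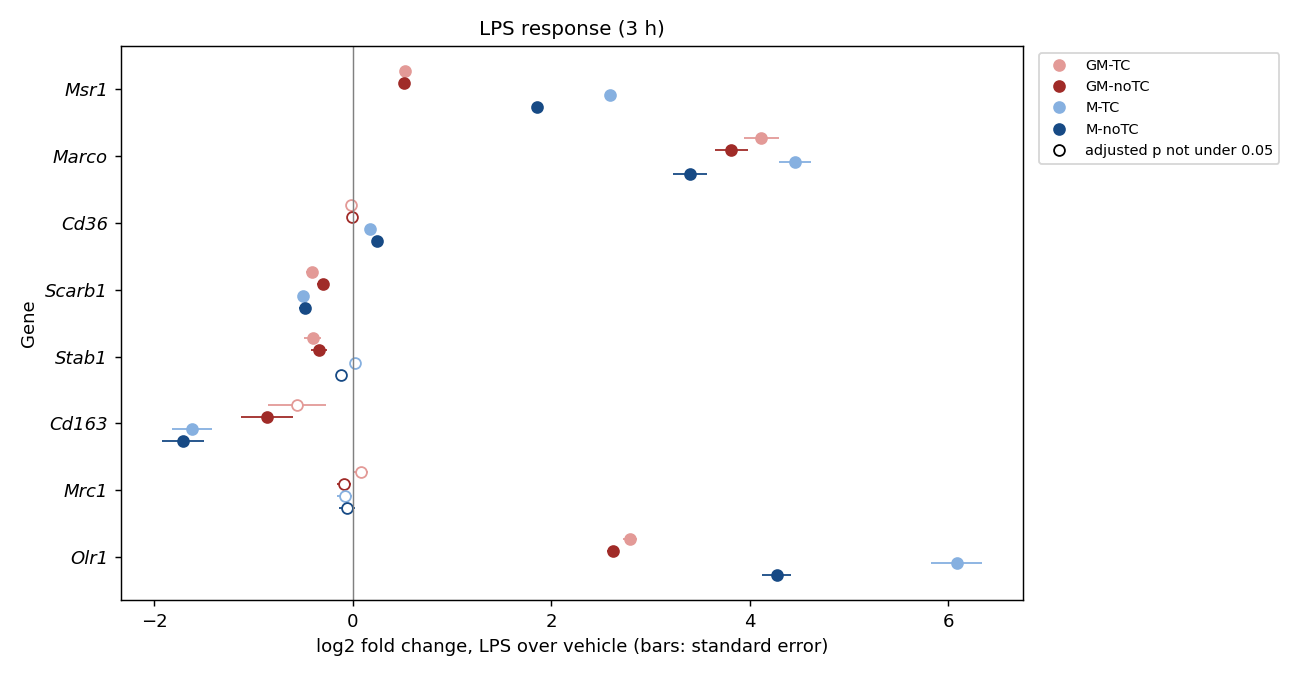
Log2 fold change of LPS over vehicle for each gene in the 4 cultures, with standard errors as bars and open circles where the adjusted p was not under 0.05. Marco and Olr1 lie at 2.62 or above in every culture, Msr1 lies at 0.52 and 0.53 in GM cells and at 1.86 and 2.60 in M cells, and the points of Mrc1 lie between -0.09 and 0.08.

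The dish comparison asked whether the surface on which the cells grew changed expression, within growth factor and treatment. In GM cells Olr1 was higher on noTC dishes, and Stab1, Mrc1, Scarb1, Marco and Cd163 were not called. In M cells Stab1 and Mrc1 were lower on noTC dishes, and with LPS Olr1 was higher and Marco lower. At steady state, 3 members were higher and none lower on noTC dishes in GM cells, against 7.54% of all genes called (4.69% higher and 2.85% lower), and 3 were higher and 2 lower in M cells, against 27.2% (16.1% higher and 11.1% lower). Upon LPS challenge, 2 were higher and none lower in GM cells, against 2.80% (2.08% higher and 0.727% lower), and 2 were higher and 4 lower in M cells, against 23.3% (10.4% higher and 12.9% lower). The member medians were 0.17 and -0.19 at steady state and 0.13 and -0.40 upon LPS challenge in GM and M cells, and the medians of all tested genes lay between 0 and 0.01. In M cells with LPS, scaling by library size alone moved that median to 0.08 and the share of higher calls from 44.5% to 70.5%. The number of genes called moved with single libraries. In GM cells it was 944 in all, 2007 without GM-TC replicate 1 and 419 without GM-noTC replicate 1, and with LPS it was 351 in all and 135 to 207 with 1 library left out. In M cells it went from 3398 to between 2110 and 2275, and with LPS from 2917 to between 1697 and 2173. The GM-TC libraries differed most from each other, with a chi-square of 12.4 per degree of freedom over their counts, against 1.90 to 5.11 in the other groups.

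Markers of other cell types also moved with the dish in M cells. The dendritic cell markers summed to 16.4 to 17.3 CPM in M-TC and 48.3 to 48.6 CPM in M-noTC, and to 25.0 to 27.4 and 58.6 to 63.2 CPM with LPS. Of the 7 tested, 2 were called higher on noTC dishes at steady state and 1 with LPS, and the others were not called. The macrophage markers summed to 25120 to 25633 CPM in M-TC and 20531 to 21740 CPM in M-noTC, and to 29490 to 30287 and 23227 to 24689 CPM with LPS. Of these 8, 2 were called higher and 4 lower on noTC dishes at steady state, and 1 higher and 6 lower with LPS. The shares of all genes called are those given above. The part of these markers in the dish differences was not tested.

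Stab1 was 989 and 1008 CPM in M-TC and 561 and 588 CPM in M-noTC, 1.74-fold lower on noTC dishes (log2 -0.80, SE 0.052, edgeR adjusted p = 2.3e-10). With LPS the values were 1071 and 960 CPM against 527 and 533 CPM, 1.92-fold lower (log2 -0.94, SE 0.052, edgeR adjusted p = 9.6e-11). No noTC library of M cells overlapped a TC library. In GM cells, Stab1 was 16.4 and 15.4 CPM on TC and 18.3 and 17.3 CPM on noTC dishes (log2 0.16, SE 0.078, adjusted p = 0.24), a direction that turned to -0.04 when the common share was subtracted. The dish difference was lower in M than in GM cells by -0.96 at steady state (SE 0.094, edgeR adjusted p = 4.2e-07) and by -1.17 with LPS (SE 0.10, adjusted p = 1.4e-07).

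Mrc1 followed the same direction in M cells. It was 168 and 191 CPM in M-TC and 99.3 and 106 CPM in M-noTC, 1.75-fold lower on noTC dishes (log2 -0.81, SE 0.077, edgeR adjusted p = 6e-08), and 175 and 164 CPM against 109 and 88.5 CPM with LPS, 1.72-fold lower (log2 -0.78, SE 0.080, adjusted p = 2.9e-07). In GM cells it was 604 and 549 CPM against 584 and 554 CPM at steady state (log2 -0.02, adjusted p = 0.93). With LPS it was 611 and 610 CPM against 539 and 532 CPM in GM cells (log2 -0.19, SE 0.074, adjusted p = 0.23), which passed in a fit to those libraries only (adjusted p = 0.0063) and with no expression filter (adjusted p = 0.049). By the interaction test the dish difference was -0.79 lower in M than in GM cells at steady state (adjusted p = 2.8e-05) and -0.59 with LPS (adjusted p = 0.00084).

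Olr1 was higher on noTC dishes in each of the 4 settings. In GM cells it was 35.4 and 36.8 against 59.2 and 58.6 CPM, 1.63-fold (log2 0.70, SE 0.067, edgeR adjusted p = 2.9e-07), and with LPS 251 and 250 against 369 and 357 CPM, 1.45-fold (log2 0.53, SE 0.058, edgeR adjusted p = 8.6e-06). In M cells with LPS it was 8.42 and 7.96 against 15.2 and 12.2 CPM, 1.67-fold (log2 0.74, SE 0.10, edgeR adjusted p = 1.9e-05). The steady state M cells had 6 counts over the M-TC libraries and 51 over the M-noTC libraries, a ratio of 6.05 with a counting interval of 2.60 to 17.3 (edgeR adjusted p = 0.0001). The excess in M-noTC was 0.717% of the mean of the remaining libraries, near the median of 0.600% over the 19 genes, which include Olr1. After subtraction of the common share the log2 value was 0.71 and did not pass (edgeR adjusted p = 0.46).

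Cd36 was slightly higher on noTC dishes throughout, by 0.25 and 0.26 in GM cells without and with LPS (edgeR adjusted p = 0.0027 and 0.0042) and by 0.16 and 0.23 in M cells (adjusted p = 0.028 and 0.0027). Each of these calls depended on a library. It was lost in GM cells without GM-noTC replicate 1 (log2 0.24, adjusted p = 0.052), and with LPS without GM-noTC-LPS replicate 1 (log2 0.25, adjusted p = 0.066) or GM-TC-LPS replicate 1 (log2 0.26, adjusted p = 0.084). In M cells it was lost without any of the 4 libraries (log2 0.12 to 0.18, adjusted p from 0.069 to 0.23), with DESeq2 (adjusted p = 0.053) and with its size factors in edgeR (adjusted p = 0.055), and with LPS without M-noTC-LPS replicate 1 (log2 0.15, adjusted p = 0.10). The steady state GM call was also lost in a fit to those libraries only (adjusted p = 0.062). Cd36 is also expressed in heart muscle, whose markers summed to 21.2 to 57.4 CPM in the steady state TC libraries and to at most 0.872 CPM in all others. Their part in the Cd36 differences was not tested.

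Msr1 had a dish difference that changed direction with LPS in M cells. It was 116 and 119 CPM in M-TC and 160 CPM in both M-noTC libraries (log2 0.44, SE 0.052, edgeR adjusted p = 1.3e-06), and with LPS 675 and 752 CPM against 566 and 593 CPM (log2 -0.30, SE 0.050, edgeR adjusted p = 0.00014). The change of the dish difference with LPS was -0.74 (SE 0.073, edgeR adjusted p = 5.2e-07). In GM cells it was 461 and 460 CPM against 517 and 518 CPM (log2 0.17, SE 0.050, edgeR adjusted p = 0.043), a call that was lost in a fit to those libraries only (adjusted p = 0.21) and without either GM-noTC replicate or GM-TC replicate 2 (adjusted p from 0.065 to 0.24). With LPS it was 669 and 659 against 744 and 737 CPM in GM cells (log2 0.16, adjusted p = 0.11), which passed in a fit to those libraries only (adjusted p = 0.037).

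Marco differed between dishes only in M cells with LPS, at 51.9 and 49.6 CPM on TC and 20.1 and 17.6 CPM on noTC dishes, 2.70-fold lower (log2 -1.43, SE 0.12, edgeR adjusted p = 2.4e-08). The corresponding value in GM cells with LPS was -0.13 (SE 0.12, adjusted p = 0.73), and the difference between the growth factors was -1.30 (SE 0.17, edgeR adjusted p = 1.7e-05). The change of the dish difference with LPS in M cells was -1.05 (SE 0.27, edgeR adjusted p = 0.015), which did not pass without M-noTC replicate 2 (log2 -0.88, adjusted p = 0.17) or M-TC replicate 1 (log2 -0.81, adjusted p = 0.12). Scarb1 gave dish differences between -0.04 and 0.08 (SE up to 0.059) that passed in no setting. Cd163 gave values between -0.49 and 0.40 (SE up to 0.31), which did not pass either, although its M-TC libraries lay above those of M-noTC (log2 -0.40, SE 0.16, adjusted p = 0.080), which passed in a fit to those libraries only (adjusted p = 0.030) and without M-noTC replicate 2 (log2 -0.63, adjusted p = 0.044).

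For the interaction of dish and LPS, no member was called in GM cells by edgeR, against 0.783% of all genes (0.192% higher and 0.591% lower), and 3 members were lower in M cells, against 10.6% (3.11% higher and 7.48% lower). For that of dish and growth factor, 2 members were higher and 2 lower at steady state, against 11.2% (6.40% higher and 4.82% lower), and 4 were lower with LPS, against 10.6% (3.71% higher and 6.87% lower). These comparisons share libraries with those above, and are not independent of them.

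**Figure D4:**
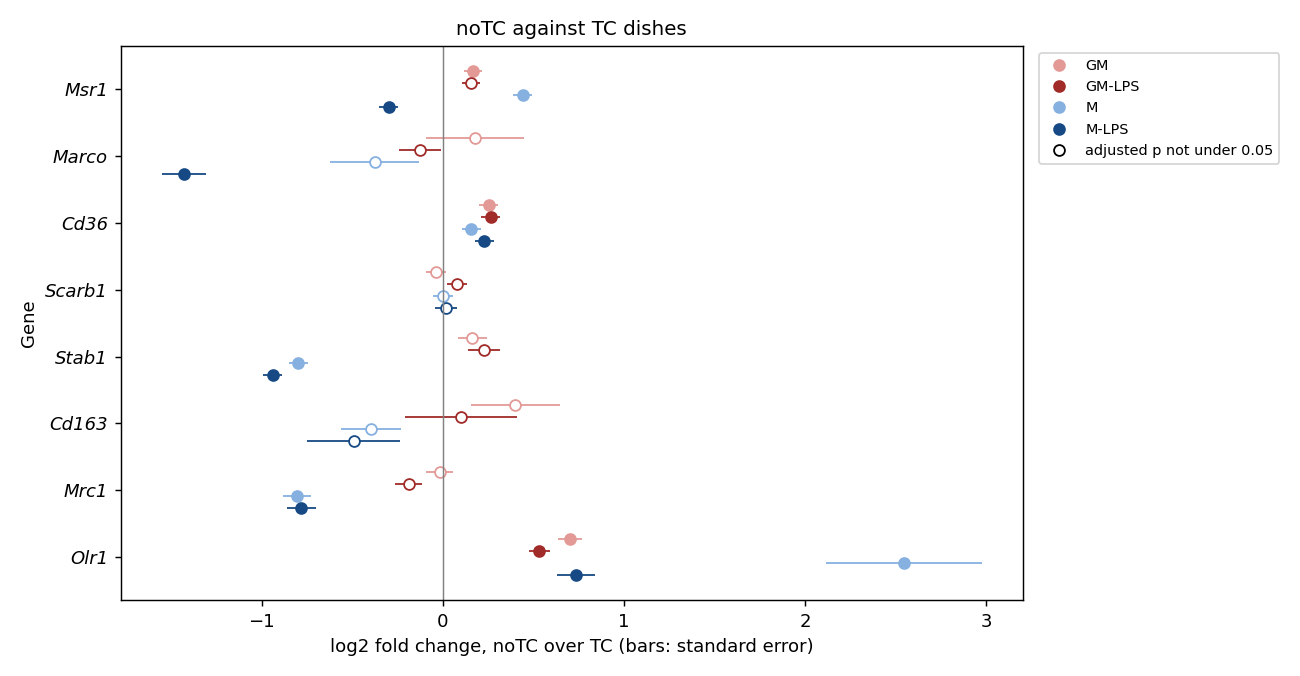
Log2 fold change of noTC over TC dishes for each gene, in GM and M cells at steady state and with LPS, with standard errors as bars and open circles where the adjusted p was not under 0.05. In M cells Stab1 and Mrc1 lie between -0.94 and -0.78, Olr1 lies above 0 in all 4 settings, and its steady state value in M cells, 2.55, has the widest bar (0.43).

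Levels of different genes were compared as CPM per kilobase of exons, summed over the exons of each gene in the GENCODE annotation, as shares of the total of the 8 members. By these lengths Cd36 held the largest share in each group, from 35.8% in M-TC-LPS to 57.0% in M-noTC. In GM-TC, Mrc1 followed with 21.4% and Msr1 with 17.2%, and Stab1 held 0.366%. In M-TC, Stab1 held 32.4% and Mrc1 9.40%, and Msr1 held 6.20%, which became 25.9% in M-TC-LPS. Olr1 reached 16.8% in GM-noTC-LPS. With the length of the longest transcript in place of the exon sum, Msr1 in GM-TC held 23.3% and Mrc1 19.7%, the reverse order, and Scarb1 held 10.8% in place of 5.04%. In M-TC-LPS, Msr1 then held 33.9% and Cd36 28.3%, so Cd36 was not the largest there.

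**Figure D5:**
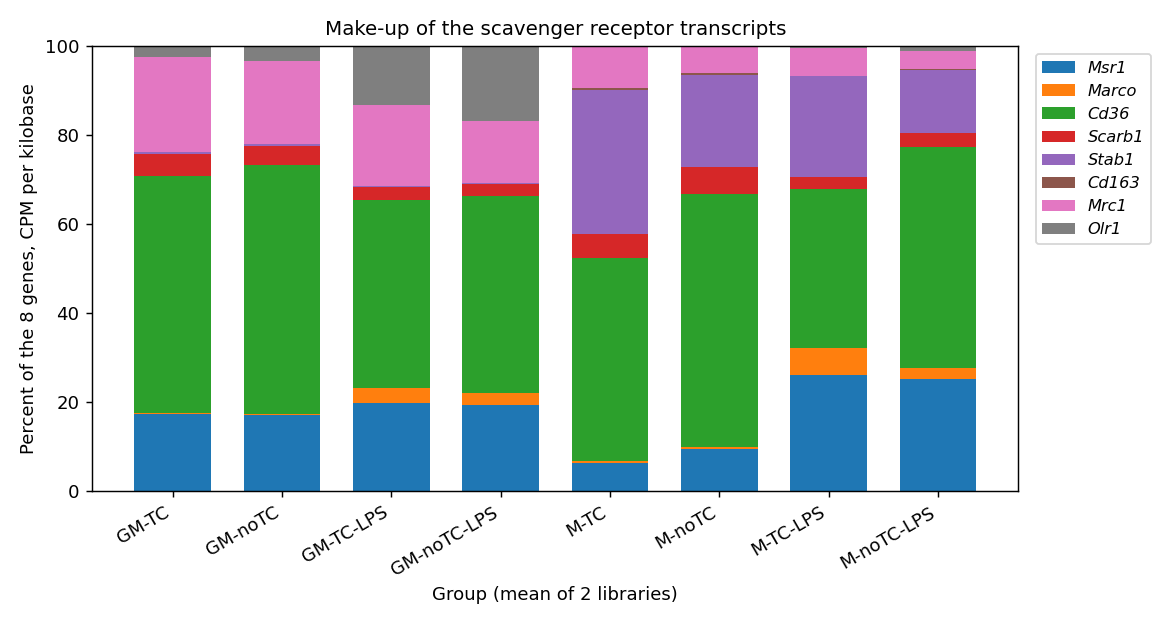
Share of each gene, in percent, of the summed CPM per kilobase of the 8 genes, as stacked bars of the mean of the 2 libraries in each group. With the exon-sum lengths used here Cd36 is the widest band in each group, while with the longest transcript Msr1 exceeded Cd36 in M-TC-LPS. Stab1 is broad in the M groups only, and Olr1 and Marco widen in the LPS groups.

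Other genes of the same functions were read from lists of other scavenger receptors, lipoprotein and haem handling, partners, transcription factors and alternative activation. For comparison, over the 4 cultures 32.8% to 37.6% of all tested genes rose and 34.0% to 36.4% fell with LPS, and on TC dishes 28.9% were higher and 32.6% lower with M-CSF. A list is described by its counts beside these shares, and nothing is called particular to it. Of 12 tested other scavenger receptors (18 listed), 5 to 7 rose and 1 to 3 fell with LPS over the 4 cultures. With M-CSF, 4 were higher and 4 lower on TC dishes. Cd5l, a secreted protein of the scavenger receptor cysteine-rich family, was 0.808 and 0.685 CPM in GM-TC and 4.31 and 4.79 CPM in M-TC (log2 2.61, SE 0.26, edgeR adjusted p = 1.2e-08). Ly75, an endocytic receptor of the mannose receptor family, was 86.3 and 73.3 CPM in GM-TC and 2.59 and 2.88 CPM in M-TC (log2 -4.86, SE 0.12, edgeR adjusted p = 1.4e-19), the direction of Mrc1, and it rose with LPS in all 4 cultures by 1.28 to 1.45. Cxcl16, a membrane chemokine that binds oxidised lipoprotein, rose in all 4 by 1.20 to 1.87.

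Of the 15 genes of lipoprotein uptake and cholesterol handling, all tested, 4 rose and 7 fell with LPS in GM-TC, and 7 rose and 7 fell in M-TC. Abcg1, which exports cholesterol, fell from 657 and 643 to 139 and 131 CPM in GM-TC (log2 -2.27, SE 0.058, edgeR adjusted p = 2.6e-19). Apoe, a lipoprotein component, had 258 and 272 CPM in GM-TC and 2584 and 2579 CPM in M-TC, and like Stab1 it was lower in M-noTC (827 and 932 CPM) than in M-TC (log2 -1.55, SE 0.064, edgeR adjusted p = 1.8e-13).

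Of 8 tested haem handling genes (9 listed), which handle the cargo of Cd163, 3 were higher and 4 lower with M-CSF on TC dishes. Hp, haptoglobin, was 31.1 and 34.0 CPM in GM-TC and 2.15 and 1.53 CPM in M-TC (log2 -4.15, SE 0.16, edgeR adjusted p = 7.1e-16), opposite in direction to Cd163. Slc40a1, the iron exporter, was 79.1 and 91.5 CPM in M-TC and 33.8 and 32.0 CPM with LPS (log2 -1.37, SE 0.078, edgeR adjusted p = 3.5e-13), a fall as for Cd163. Hmox1, haem oxygenase, rose with LPS in M-TC, from 267 and 270 to 521 and 460 CPM (log2 0.87, SE 0.063, edgeR adjusted p = 3.2e-11), and passed in none of the other cultures (adjusted p from 0.14 to 0.60).

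Of 12 tested partners, adaptors and sheddases (14 listed), 9 rose in each of the 4 cultures and 1 or 2 fell with LPS, with a list median of 0.48 to 1.17. Tlr2, which acts with Cd36 in sensing lipopeptides, rose by 1.93 to 2.59, Cd14, the LPS co-receptor, by 1.72 to 2.81, and Rhbdf2, which supports shedding by Adam17, by 1.88 to 3.19. Of 15 transcription factors, 7 rose and 7 fell in GM-TC. Cebpa fell by 2.28 to 3.68 over the 4 cultures, Bhlhe40 was lower in M-TC than in GM-TC (log2 -4.04, SE 0.066, edgeR adjusted p = 2.7e-22), and Irf4 was lower likewise (log2 -3.76, SE 0.10, edgeR adjusted p = 1.9e-18).

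Of 11 tested alternative activation genes (12 listed), 2 were higher and 9 lower in M-TC than in GM-TC, with a median of -6.24. Ccl17 and Ccl22, chemokines of macrophages and dendritic cells, were among the lower ones, at 55.5 and 75.1 CPM and at 64.2 and 73.3 CPM in GM-TC, against at most 0.16 CPM in M-TC. In M-TC both rose with LPS, to 8.47 and 9.41 CPM for Ccl17 and to 48.5 and 56.4 CPM for Ccl22. Il10, an anti-inflammatory cytokine, was 2.99 and 2.32 CPM in M-TC and had 0 counts in both GM-TC libraries.

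By Pearson correlation of log2 CPM over the 16 libraries, given as a description since the libraries share growth factor, dish and treatment, the genes closest to Stab1 were Slc9a9 (r = 0.998) and Csf1r (r = 0.997), the M-CSF receptor. Those closest to Mrc1 were Psap (r = 0.997) and Sema4a (r = 0.992), and those closest to Olr1 were F10 (r = 0.995) and Ccl17 (r = 0.993). Msr1 was closest to Gcnt2 (r = 0.991) and Bcl2a1d (r = 0.989), which shares reads with near-identical copies and is uncertain. Marco was closest to Rab11a (r = 0.993) and Plcb3 (r = 0.991), Cd36 to Eno1 and Itgam (r = 0.984 and 0.983), Scarb1 to St6galnac6 and Tmem189 (r = 0.991 and 0.990), and Cd163 to Rassf2 and Rnf167 (r = 0.981 and 0.977). Among the members themselves, Cd163 and Olr1 were most opposed (r = -0.948), followed by Stab1 and Mrc1 (r = -0.929) and Stab1 and Cd36 (r = -0.926), and Cd36 and Olr1 were most alike (r = 0.891).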

How the data were processed

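Libraries of mRNA, captured on oligo(dT) beads from the total RNA of BMDMs, were sequenced for 16 samples. Per the submitters' processing notes, reads were handled with fastp 0.18.0, Bowtie2 2.2.8, HISAT2, StringTie 1.3.1, RSEM, DESeq2 and edgeR. The genome build and annotation are not given in the sources used here. The values that the authors deposited are RSEM expected counts (estimated counts per gene) with no normalization. Values were rounded before testing, since 6.56% to 8.19% of the genes in each library were not at whole numbers.

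Groups came from the sample labels. Counts were filtered with filterByExpr by group, scaled with TMM, and tested with edgeR 4.0.16 in R 4.3.3 (glmQLFit and glmQLFTest, 1 mean per group over all 16 libraries, Benjamini-Hochberg over 12514 genes, call at an adjusted p under 0.05). The biological coefficient of variation was 4.75% (common dispersion 0.00226). A standard error is the log2 fold change divided by the square root of F. The test was checked on simulated counts. Alternatives were DESeq2 1.42.0, its size factors, library size alone, no filter, only the libraries compared, a replicate block, the study's threshold, each library left out, and subtraction from steady state noTC libraries of the share of other libraries' reads. Named genes are the 8 members, up to 3 called genes per list with the largest change and a mean of 1 CPM or more, and for each member the 2 genes of most like pattern at 10 CPM or more. A gene that the rule named is not reported here. Lengths came from GENCODE and promoters from RefSeq. Ratios of Olr1 counts carry exact 95% intervals for counting error only. The members and lists were chosen with earlier results of these data known.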

Additional observations from a re-analysis of the deposited data

Results flagged for a closer look

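The effects listed here differed between groups by a test of the difference itself, an edgeR interaction term called at a Benjamini-Hochberg adjusted p under 0.05. Each value is a difference of log2 fold changes, and its sign is that of M-CSF minus GM-CSF, noTC minus TC or LPS minus vehicle.

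Between the growth factors, the LPS response on TC dishes was higher in M cells for Msr1 (2.07, adjusted p = 1.6e-15), Olr1 (3.29, adjusted p = 1e-07), Stab1 (0.43, adjusted p = 0.0015) and Cd36 (0.20, adjusted p = 0.037), and lower for Cd163 (-1.06, adjusted p = 0.023). For Stab1 this sets a fall in GM-TC beside no called change in M-TC. With scaling by library size alone the Stab1 value was not called (adjusted p = 0.53), and the Cd36 value turned in direction, as listed below. That of Cd36 was lost with no expression filter (adjusted p = 0.060), in a fit to only those libraries (adjusted p = 0.093) and without GM-TC replicate 2, M-TC-LPS replicate 2, or either replicate of GM-TC-LPS or M-TC (adjusted p from 0.059 to 0.17). On noTC dishes the LPS response was higher in M cells for Msr1 (1.34, adjusted p = 2.2e-12), Olr1 (1.65, adjusted p = 1.8e-07) and Cd36 (0.26, adjusted p = 0.0080). The Olr1 value was 3.48 with the common share subtracted from the steady state noTC libraries, and nothing from those with LPS. The Cd36 call was lost with scaling by library size alone (adjusted p = 0.70) and without M-noTC-LPS replicate 1 (log2 0.17).

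Between the dishes, the LPS response in M cells was lower on noTC for Msr1 (-0.74, adjusted p = 5.2e-07), Marco (-1.05, adjusted p = 0.015) and Olr1 (-1.81, adjusted p = 0.014). The Olr1 value rests on 3 counts in each M-TC library. It was not called without M-noTC replicate 1 or either M-TC replicate. It turned, to 0.024, when the common share of reads was subtracted from M-noTC and nothing from M-noTC-LPS.

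Between the growth factors, the dish difference at steady state was higher in M cells for Msr1 (0.27, adjusted p = 0.016) and Olr1 (1.84, adjusted p = 0.0099), and lower for Stab1 (-0.96, adjusted p = 4.2e-07) and Mrc1 (-0.79, adjusted p = 2.8e-05). The Msr1 call was lost without either GM-noTC replicate, either M-noTC replicate or M-TC replicate 1 (adjusted p from 0.058 to 0.089), and the Olr1 call without either M-TC replicate (adjusted p = 0.068 and 0.089). With the common share subtracted, that Olr1 value was 0.015 and was not called (adjusted p = 0.99). Upon LPS challenge the dish difference was lower in M cells for Msr1 (-0.46, adjusted p = 0.00015), Marco (-1.30, adjusted p = 1.7e-05), Stab1 (-1.17, adjusted p = 1.4e-07) and Mrc1 (-0.59, adjusted p = 0.00084).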

How the results depend on the processing

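Of 1920 recomputed log2 values, 1737 kept their direction and their side of the threshold, 99 lost a call, 27 gained one and 57 turned in direction, 4 of these among called values. Same-numbered libraries did not deviate together (correlations across genes of -0.064 to 0.020). That cannot tell whether they came from the same mice or cultures. A fit with the replicate block kept all 144 directions and calls. Precision is limited by 2 libraries in each group, and for Olr1 in M-TC by 3 counts in each library.

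With scaling by library size alone, these values turned: Cd36 in LPS responses of M-TC (-0.65) and M-noTC (-0.48), Mrc1 in that of GM-TC (-0.40), Stab1 in that of M-TC (-0.80), Scarb1 between dishes in M (-0.010), and, among interactions, Cd163 for dish by LPS in M (0.0057), Cd36 for dish by growth factor upon LPS (0.072), dish by LPS in GM (-0.017) and growth factor by LPS on TC (-0.15), Marco for growth factor by LPS on TC (-0.013), Mrc1 for growth factor by LPS on noTC (-0.18) and Scarb1 for dish by growth factor upon LPS (0.047). Without an expression filter Cd36 in the LPS response of GM-noTC was 0.013. With the common share subtracted, Olr1 for dish by LPS in M was 0.024 and Stab1 between dishes in GM was -0.040. Scarb1 between dishes was -0.018 in M and -0.0015 in M-LPS with DESeq2, -0.018 and -0.0012 with its size factors, and -0.012 in M in a fit to only those libraries, where Stab1 in the LPS response of M-TC was -0.028. The cause of these turns was not tested, apart from the shift of all genes that scaling brings.

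In fits to only the libraries compared, 1 member was called between dishes in GM, 4 in GM-LPS, and 5 for growth factor by LPS on noTC. With calls made at an unadjusted p under 0.05 and a fold over 2, the members called were 2 in the LPS responses of GM-TC and of GM-noTC, 0 between dishes in GM and in GM-LPS, 1 in M and in M-LPS, 4 between growth factors on TC-LPS and 3 on noTC-LPS, 3 for growth factor by LPS on TC, 1 for dish by growth factor at steady state and 2 upon LPS. Of all 12514 genes it called, in the same order, 3323, 3290, 342, 145, 540, 354, 3197, 3126, 1745, 407 and 366. That rule asks for a larger change, and fewer members reach it. The 0 calls between dishes in GM compare with 3 by edgeR's adjusted p.

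With each library left out in turn, the lone library of a group was assumed to vary like the other groups. The members called then ranged from 1 to 3 between dishes in GM, 1 to 2 in GM-LPS, 1 to 3 for dish by LPS in M, 2 to 4 for dish by growth factor at steady state, 3 to 5 for growth factor by LPS on TC and 2 to 4 on noTC. Values that turned, none of them called, had these ranges: between dishes, Marco -0.041 to 0.42 in GM and -0.29 to 0.040 in GM-LPS, Mrc1 -0.085 to 0.052 in GM, and Scarb1 -0.074 to 0.0028 in GM, -0.034 to 0.030 in M and -0.064 to 0.11 in M-LPS. In LPS responses they were Cd36 -0.029 to 0.024 in GM-noTC and -0.035 to 0.011 in GM-TC, Mrc1 -0.22 to 0.092 in M-noTC and -0.17 to 0.019 in M-TC, and Stab1 -0.058 to 0.10 in M-TC. Marco between growth factors on TC ranged from -0.057 to 0.49. Among interactions, dish by LPS gave Cd163 -0.34 to 0.24, Cd36 -0.012 to 0.15, Mrc1 -0.14 to 0.17 and Scarb1 -0.069 to 0.11 in M, and Cd36 -0.020 to 0.047 and Msr1 -0.020 to 0.00086 in GM. Dish by growth factor upon LPS gave Cd36 -0.12 to 0.044 and Scarb1 -0.14 to 0.034, and growth factor by LPS gave Mrc1 -0.13 to 0.18 on noTC and Scarb1 -0.17 to 0.0045 on TC. Levels without a test moved by more than the spread of their 2 libraries in 60 of 64 cases with CPM by library size and in 51 of 64 with the longest transcript.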
